A study of Sus scrofa with 15 samples.

Results

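The transcripts described here are assembled transcripts that stand alone in the pig genome: stretches of RNA that the authors' StringTie assembly found in their libraries (identifiers starting MSTRG) and whose locus is given to no known gene of the table. They were chosen by 2 criteria, the absence of a known gene entry with the same locus and a mean of at least 10 in normalised signal over all 15 libraries, with 1 entry kept per identifier. Removal of 241 repeated entries left 43294 features, 28224 known genes and 15070 assembled transcripts. Of the assembled transcripts, 11213 shared the locus of a known gene and 3857 stood alone, and 1071 of these 3857 (27.8%) reached the mean of 10 and are called members below. The mean is itself a measured level, so the level of the members is a description and was not tested. The members nearest to the limit were MSTRG.147491 and MSTRG.21073 at 10.04 and MSTRG.98697 at 10.05, and the transcripts just under it were MSTRG.89577 at 9.99, MSTRG.60624 at 9.97 and MSTRG.146209 at 9.93. Of the 2786 lone transcripts under the limit, 675 were listed at 0 in all 15 libraries.

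Somatic cell nuclear transfer (SCNT) places the nucleus of a body cell into an enucleated oocyte, and the cloned embryo then relies on stored maternal RNA until its own genome is switched on. In early mammalian embryos this switch is accompanied by transcription from many places outside annotated genes, among them transposable elements, which make up much of the repeated sequence of a mammalian genome. Such transcription is often missing from gene annotations that were built mainly from adult tissues, and an assembly made from embryo reads can recover it as transcripts with no gene name.

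RNA was sequenced from 5 groups of 3 libraries each, and each embryo library was made from a pool of 30 embryos. PFF were primary porcine fetal fibroblasts, the donor cells, taken at early passages. SCNT4c and SCNT8c were untreated cloned embryos at the 4-cell and the 8-cell stage. SCNT4c-KG embryos were at the 4-cell stage after injection of mRNA for KDM4A, a demethylase of histone H3 lysine 9, and culture with 0.1 µM GSK126, an inhibitor of the H3 lysine 27 methyltransferase EZH2, from 0 to 48 h. SCNT4c-TDG embryos were at the 4-cell stage and came from PFF that carried a doxycycline-inducible vector for TDG, the thymine DNA glycosylase that acts in DNA demethylation, with doxycycline given from 40 to 72 h, whereas the SCNT4c controls carried neither the vector nor the drug. The sample numbers of the SCNT4c-TDG libraries lie apart from those of all other groups. The labels do not say whether these libraries were prepared or sequenced apart, and such a difference could not be told apart from TDG induction. The 3 SCNT4c libraries are called a, b and c here because their labels number them in conflicting ways. Nothing in the labels says that libraries of 1 group came from separate donor cultures, so p-values measure the spread between these library samples.

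The read totals recovered from the table ran from 22224949 to 22868038 in PFF, 20460653 to 22530486 in SCNT4c, 12354649 to 15390472 in SCNT4c-KG, 17757929 to 19564459 in SCNT4c-TDG and 18083559 to 19549670 in SCNT8c. The labels were checked against known genes: KDM4A was at 1429 to 1476 in SCNT4c-KG against 134 to 313 in SCNT4c, and TDG at 49857 to 59944 in SCNT4c-TDG against 939 to 2541. The summed signal of 10 fibroblast markers was 3382922 to 3687789 in PFF and 1425 to 4869 in the embryos, whereas 12 oocyte and maternal transcripts summed to 11.5 to 21.5 in PFF, 167510 to 228777 in SCNT4c, 110119 to 184453 in SCNT4c-KG, 57874 to 62116 in SCNT4c-TDG and 52286 to 143036 in SCNT8c, although GDF9, a growth factor gene of oocytes, was listed at 0 in all libraries. A list of cumulus or granulosa cell markers, of which 9 of 10 were in the table, summed to 566 to 628 in PFF, 1416 to 1837 in SCNT4c, 939 to 1198 in SCNT4c-KG, 516 to 646 in SCNT4c-TDG and 1430 to 1951 in SCNT8c. Its marker PTX3 was at 0 in every embryo group, but most of the list was not: 2 genes were at 0 in all SCNT4c libraries and 3 in all SCNT8c libraries. The part of these lists in the members' differences was not tested. The library SCNT8c replicate 3 stood apart from the other two of its group. Counts of called members in the embryo fit are also given without it, whereas medians, means and sums of SCNT8c include it.

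Stretches of 4 members, 180 bases each, are printed first, since the identifiers alone say nothing about what was transcribed. All are the plus strand of the reference genome, build Sscrofa11.1, read 5′ to 3′. Capitals mark bases outside the soft mask of the reference, that is, bases not marked there as interspersed or low-complexity repeats, and lower case marks masked bases. MSTRG.149104 is shown as one of the most abundant members of SCNT4c, MSTRG.54508 as a transcript without a read in SCNT4c-KG, MSTRG.144860 as one that separated the treated groups, and MSTRG.66032 as a transcript of the donor cells. The strand and the exons of the members are not given in the sources used here, so a printed stretch lies within the locus but may lie in an intron.
MSTRG.149104 (chr17:63116354-63116533): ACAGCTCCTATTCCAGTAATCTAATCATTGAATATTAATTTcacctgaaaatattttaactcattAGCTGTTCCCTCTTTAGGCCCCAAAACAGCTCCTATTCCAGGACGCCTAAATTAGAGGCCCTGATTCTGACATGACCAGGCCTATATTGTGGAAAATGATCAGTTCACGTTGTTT
MSTRG.54508 (chr6:4434771-4434950): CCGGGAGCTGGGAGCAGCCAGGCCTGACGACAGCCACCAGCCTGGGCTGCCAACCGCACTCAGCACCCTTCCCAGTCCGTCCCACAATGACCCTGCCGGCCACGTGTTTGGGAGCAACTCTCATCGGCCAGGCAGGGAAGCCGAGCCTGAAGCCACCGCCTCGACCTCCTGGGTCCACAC
MSTRG.144860 (chr17:4411498-4411677): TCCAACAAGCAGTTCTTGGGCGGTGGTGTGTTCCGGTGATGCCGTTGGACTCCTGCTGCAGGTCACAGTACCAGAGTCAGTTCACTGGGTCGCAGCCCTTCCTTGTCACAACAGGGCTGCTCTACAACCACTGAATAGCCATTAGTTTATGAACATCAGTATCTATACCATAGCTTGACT
MSTRG.66032 (chr6:158537287-158537466): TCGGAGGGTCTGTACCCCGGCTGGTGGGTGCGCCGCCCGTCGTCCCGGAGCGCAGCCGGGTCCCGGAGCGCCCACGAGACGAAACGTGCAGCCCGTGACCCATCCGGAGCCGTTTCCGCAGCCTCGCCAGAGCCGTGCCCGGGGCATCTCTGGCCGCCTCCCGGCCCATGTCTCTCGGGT
In the stretch of MSTRG.149104 156 of the 180 bases are capitals, and in the other stretches all are. A comparison with the whole genome found no other alignment of at least 500 bases for MSTRG.54508, MSTRG.144860 or MSTRG.66032. For MSTRG.149104 it found 20 others, the longest of 2345 bases at 98.0% identity. Because the authors counted uniquely mapped reads, the value of a transcript with near-identical copies is uncertain.

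The 1071 members lay at 989 loci, and 151 of them shared a locus with another member, at most 5 at 1 locus. One member overlapped a RefSeq gene by its coordinates, 275 (25.7%) lay within 5 kb of the nearest known gene, 531 (49.6%) at 5 to 50 kb and 264 (24.6%) farther away. A locus spanned from 714 to 1385050 bases with a median of 34164, and 343 members had a span over 100 kb. Chromosome 1 held 157 members and the X chromosome 69. On the Y chromosome, members were 11 of the 52 features that reached the mean of 10 (21.2%). Most members were low. The median of their means over the 15 libraries was 36.42, 279 reached 100, 41 reached 1000, and the 10 highest held 30.7% of the signal of all members.

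Members made up a small share of the signal in donor cells and a larger one in embryos. In PFF they held 0.200%, 0.211% and 0.243% of the library signal, a mean of 0.218% ± 0.022 (SD, n = 3). In SCNT4c the share was 2.199% ± 0.058 (SD, n = 3), in SCNT4c-KG 1.348% ± 0.119, in SCNT4c-TDG 1.5% ± 0.137 and in SCNT8c 1.392% ± 0.454. The 3 PFF libraries lay under all 12 embryo libraries, and the 3 SCNT4c libraries lay above all libraries of the other embryo groups. The 8-cell libraries were spread widely, at 1.391%, 0.939% and 1.847%, the last being replicate 3. In pooled embryos, fewer cells that hold a transcript and less of it per cell cannot be told apart.

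**Figure D1:**
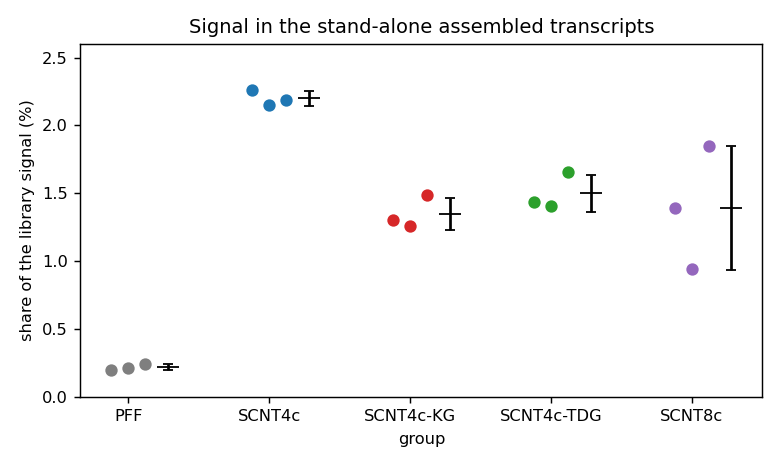
Share of the library signal (%, vertical axis) held by the 1071 stand-alone assembled transcripts in each of the 15 libraries (points, by group on the horizontal axis), with the group mean and SD (bars, n = 3). PFF sits near 0.218%, SCNT4c near 2.199%, and the SCNT8c libraries range from 0.939% to 1.847%.

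Few members reached a mean of 10 in the donor cells. A mean of at least 10 in PFF was reached by 95 members (8.9%), against 10326 known genes (74.4%) and 2097 assembled transcripts at gene loci (41.9%) with the same overall mean. In all 3 PFF libraries, 774 members (72.3%) were listed at 0, against 12.6% of known genes and 27.6% of assembled transcripts at gene loci. In the embryo groups, 898 members (83.8%) reached a mean of 10 in SCNT4c, 913 (85.2%) in SCNT4c-KG, 867 (81.0%) in SCNT4c-TDG and 849 (79.3%) in SCNT8c. These are shares of features chosen by their mean over all libraries, 12 of which are embryo libraries, and they were not tested. Of the 1071 members, 599 reached 10 in all 4 embryo groups, 55 in every group including PFF, and 7 in PFF alone. The group with the highest mean was SCNT4c for 474 members, SCNT4c-KG for 293, SCNT4c-TDG for 183, SCNT8c for 83 and PFF for 38.

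The most abundant members formed several kinds. MSTRG.125207 (chr14:37962189-37986101), 95941 bases from RBM19, a gene of ribosome biogenesis, had the highest mean of all, 9868. Its values were 0 in the 3 PFF libraries, 30377, 25668 and 25818 in SCNT4c, 5167, 4173 and 5804 in SCNT4c-KG, 5013, 6200 and 9617 in SCNT4c-TDG, and 7314, 3758 and 19111 in SCNT8c. MSTRG.37883 (chr4:3719037-3785268), near the lncRNA LOC110260211, was at 0 in PFF, 28518, 37105 and 41326 in SCNT4c, 3107, 2501 and 2994 in SCNT4c-KG, 936, 1208 and 1015 in SCNT4c-TDG, and 4308, 5053 and 16835 in SCNT8c. In both, every SCNT4c library lay above every library of the other embryo groups, and SCNT8c replicate 3 lay nearest to SCNT4c. MSTRG.149104 (chr17:63115279-63117610, printed above) was also highest in SCNT4c, with 22115, 31236 and 29450 in SCNT4c, 1374, 773 and 1221 in SCNT4c-KG, 216, 597 and 781 in SCNT4c-TDG, and 2845, 1237 and 25439 in SCNT8c, where replicate 3 lay among the SCNT4c libraries. Part of its locus matched the exons of LOC110255916, an uncharacterised lncRNA elsewhere in the annotation, over 1424 bases at 97.3% identity.

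Some abundant members had copies of other annotated genes' exons at their loci. MSTRG.142103 (chr16:27763575-27777614) matched exons of its neighbour LOC102162127, annotated as annexin-2 receptor, over 543 bases at 98.7% identity. It was at 0 in PFF, 11405, 4374 and 5265 in SCNT4c, 8053, 5326 and 3682 in SCNT4c-KG, 11540, 10103 and 6361 in SCNT4c-TDG, and 5321, 6550 and 8000 in SCNT8c, so that all 4 embryo groups overlapped. MSTRG.86503 (chr9:22993280-23000568) matched LOC100737633, annotated as tripartite motif-containing protein 43-like, over 496 bases at 98.0% identity. It had 11898, 8575 and 15458 in SCNT4c, and its values in the other embryo groups were lower, from 2614 in SCNT8c to 6390 in SCNT4c-KG, whereas PFF had 0, 0 and 2.38. Reads from such loci and from the matched gene may be split between them.

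A few members were as high in donor cells as in embryos. MSTRG.156006 (chrX:57284722-57315978), 512 bases from ITGB1BP2, which encodes the muscle protein melusin, was at 10798, 10631 and 10971 in PFF, 3595, 5856 and 7922 in SCNT4c, 9920, 9689 and 12706 in SCNT4c-KG, 4142, 3454 and 3330 in SCNT4c-TDG, and 9973, 9738 and 3677 in SCNT8c. MSTRG.30487 (chr3:33597658-33624595), 2366 bases from C3H16orf72, was highest in PFF at 11786, 12388 and 12051, intermediate in SCNT4c-TDG at 6796, 5914 and 5987, and lower in SCNT4c at 1025, 1180 and 1083, in SCNT4c-KG at 1469, 1496 and 1347, and in SCNT8c at 1360, 1010 and 661. Its rise in SCNT4c-TDG over SCNT4c was 2.51 ± 0.29 on the log2 scale (SE; adjusted p = 1.4e-05 from limma). The steadiest member with a mean of at least 100 was MSTRG.109163 (chr12:53781904-53867759), 352 bases from MYH10, a non-muscle myosin heavy chain gene, with an SD of 0.39 on the log2 scale over the 15 libraries. It ranged from 91.5 in SCNT8c to 293 in SCNT4c, with PFF at 170, 131 and 163. The next steadiest were MSTRG.70711 near GLYATL3, MSTRG.156006, MSTRG.58789 near ZNF470 and MSTRG.131145 near LOC110256827, with SDs of 0.71 to 0.76, and MSTRG.58789 nonetheless rose in SCNT4c-TDG, at 1892, 1338 and 1283 against 698, 568 and 379 in SCNT4c (log2 difference 1.48 ± 0.36, adjusted p = 0.0059).

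Groups were compared with limma on log2(value + 1), and a feature is said to rise or fall at an adjusted p under 0.05 together with a more than 2-fold change. In the fit of the 12 embryo libraries, 1055 of the 1071 members were tested, and the other 16 had a mean under 10 over these libraries. SCNT4c enters 4 of the 5 comparisons, as the control of 3 and against PFF, so these share 3 libraries and are not independent. A member can reach the overall mean of 10 through 1 group alone, in which case its groups have to differ, so the counts of members are read only against the share of all tested features with the same call. This held for 340 of the 1071 members, whose libraries outside their highest group contributed under 10 to the mean. For the 12 named members among them (MSTRG.54508, MSTRG.55980, MSTRG.55956, MSTRG.160960, MSTRG.157410, MSTRG.157415, MSTRG.109405, MSTRG.109408, MSTRG.104406, MSTRG.66032, MSTRG.104301 and MSTRG.8375) any values are given with no p. No p is given either for the named rises MSTRG.130675, MSTRG.132397, MSTRG.11632, MSTRG.129022, MSTRG.78738, MSTRG.160993, MSTRG.72385 and MSTRG.50834. They reached the mean of 10 only with the treated groups counted, where they were high.

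After KDM4A and GSK126 treatment, members rose and fell about as often as other features. Of the 1055 tested, 374 changed (35.5%, against 37.2% of all tested features), of which 182 rose (17.3%, against 17.6%) and 192 fell (18.2%, against 19.6%). The median log2 difference between SCNT4c-KG and SCNT4c was -0.33 for the members, or -0.32 with members at 0 in 1 group placed at their bound, and -0.30 for all features. Counting only members with a mean of at least 50 gave 208, and a minimum mean of 50 for every feature gave 244. Both settings count fewer members by construction, so these are not shares of the 1055. Without SCNT8c replicate 3 in the shared fit, 478 were called, of which 218 rose and 260 fell. Shares of all features are not given for these settings, so the counts show only how far the result moved.

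MSTRG.132397 and MSTRG.160993 had no read in any SCNT4c library. MSTRG.132397 (chr15:22045198-22051719), 33209 bases from DPP10, which encodes a subunit of potassium channels, had 124, 117 and 217 in SCNT4c-KG, at least 184-fold higher than in SCNT4c against a floor of 3 reads over the group. It also had 86.1, 62.1 and 58.9 in SCNT4c-TDG but only 3.73, 0 and 0 in SCNT8c, and 91.7% of its locus was masked repeat. MSTRG.11632 (chr1:182956263-182995698) had 149, 184 and 211 in SCNT4c-KG against 0, 2.62 and 0 in SCNT4c, a ratio of 220 in reads scaled to depth (384 against 3 reads) with a 95% counting interval of 74.8 to 1073. Intervals and floors of this kind cover counting error only. MSTRG.129022 (chr14:104212419-104244721), 12735 bases from HHEX, a homeobox gene, had 333, 83.8 and 182 against 1.58, 0 and 1.66, a log2 difference of 6.51 ± 0.82. In these members no SCNT4c library came near any SCNT4c-KG library, and PFF was at 0 throughout. The other named rises were MSTRG.130675 at 423, 680 and 328 against 0, 18.4 and 0, and MSTRG.78738 at 417, 126 and 211 against 0, 7.86 and 9.96. All named rises of this comparison reached the mean of 10 only with the treated groups counted, so they are in part built in.

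Among the falls, MSTRG.54508 (chr6:4434439-4435284, printed above), 2513 bases from ADAD2, a testis-expressed gene of the adenosine deaminase family, had 287, 76.9 and 24.9 in SCNT4c and no read in SCNT4c-KG. It was at least 89.9-fold lower there against the floor of 3 reads. The 3 SCNT4c values themselves spread widely, and SCNT8c also ranged widely, at 15.9, 0 and 94.0. MSTRG.136296 (chr15:81598691-81624952) had 102, 225 and 148 in SCNT4c against 0, 0 and 11.4 in SCNT4c-KG, a log2 difference of -6.03 ± 0.91 (adjusted p = 0.00015). Its SCNT8c values, 78.4, 74.0 and 112, overlapped those of SCNT4c. MSTRG.55980 had 97.0, 107 and 171 in SCNT4c and at most 3.27 in SCNT4c-KG. MSTRG.148383, at 248, 179 and 135 in SCNT4c, fell to at most 31.0 (adjusted p = 0.00174). MSTRG.133078, with the uneven control values 21.3, 305 and 83.9, fell to 3.27, 0 and 0 (adjusted p = 0.00964) and did not keep this call in 1 fit without 1 replicate.

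**Figure D2:**
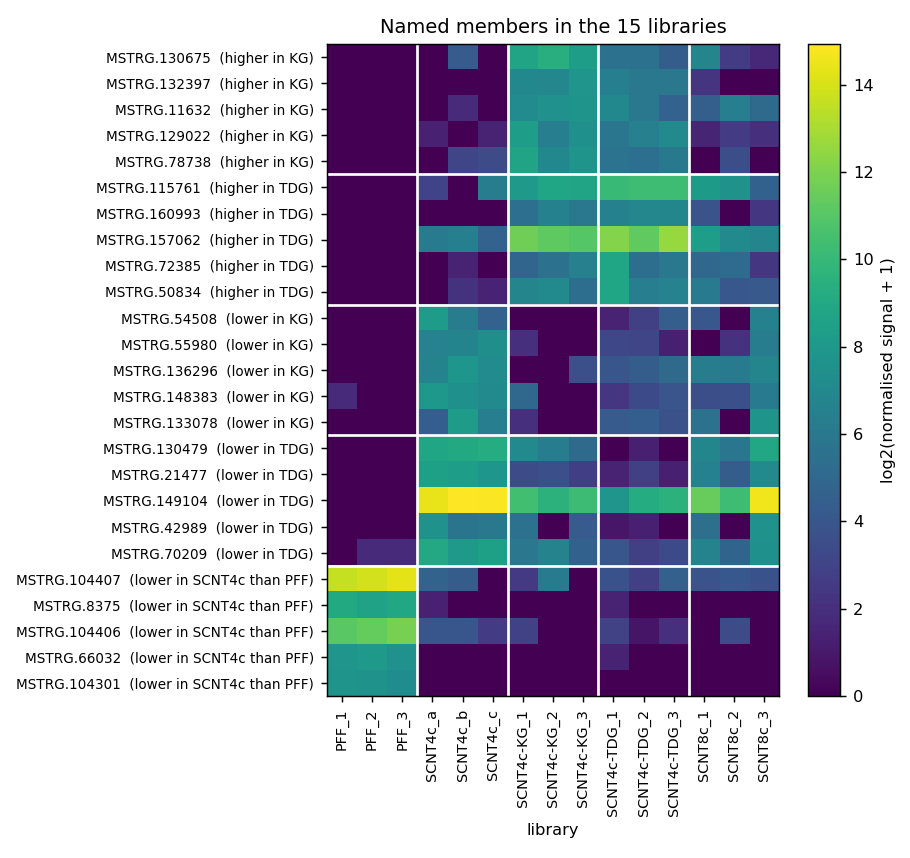
Normalised signal on the log2(value + 1) scale (colour) of 25 members with the largest rises and falls in 3 comparisons (horizontal blocks) across the 15 libraries (columns, by group). All members named for SCNT4c-KG and SCNT4c-TDG are at or near 0 in PFF, and the members named as lower in SCNT4c than PFF are bright in PFF and dark in nearly all embryo libraries.

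After TDG induction, members rose and fell at shares near those of all features. Of the 1055 tested members 358 changed (33.9%, against 33.3% of all features), of which 150 rose (14.2%, against 15.7%) and 208 fell (19.7%, against 17.6%). The median log2 difference between SCNT4c-TDG and SCNT4c was -0.70 for the members and -0.26 for all features. Scaling every library to the same total changed the split to 172 rises and 182 falls, so the balance of rises and falls depends on the scaling. In a fit of these 2 groups alone 569 were called, counting only members with a mean of at least 50 gave 212, without SCNT4c-TDG replicate 1 the count was 223, and without SCNT8c replicate 3 it was 466 (184 rises and 282 falls). The count of 212 is taken from fewer members by construction. No share of all features is given for these refits, so they show only how far the count moved.

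MSTRG.157062 (chrX:72865921-72876542), 17639 bases from TGIF2LX, an X-linked homeobox gene, rose from low to abundant in both treated groups. It had 67.8, 84.8 and 24.9 in SCNT4c, 4658, 2478 and 6440 in SCNT4c-TDG, and 3303, 2398 and 2023 in SCNT4c-KG. The log2 difference was 6.30 ± 0.51 in SCNT4c-TDG (adjusted p = 6.8e-07) and 5.56 ± 0.51 in SCNT4c-KG (adjusted p = 1.4e-06), with SCNT8c at 314, 141 and 110. MSTRG.115761 (chr13:103517045-103838324) had 7.10, 0 and 76.4 in SCNT4c against 1117, 1230 and 1233 after induction, a log2 difference of 7.12 ± 1.16 (adjusted p = 0.00029), and DESeq2 on the recovered reads gave no adjusted p for it. A second member assembled at the same locus, MSTRG.115760, had 254, 236 and 358 in SCNT4c against 115, 187 and 225 after induction and did not pass the test there (adjusted p = 0.512). On the Y chromosome, MSTRG.160993 (chrY:8012097-8016461) had 0 in SCNT4c and 95.3, 117 and 113 in SCNT4c-TDG, at least 131-fold higher, and 42.5, 92.6 and 61.3 in SCNT4c-KG. MSTRG.72385 and MSTRG.50834 rested in part on SCNT4c-TDG replicate 1: they had 442, 41.4 and 61.2, and 452, 82.1 and 95.6, against at most 3.50 in any SCNT4c library. Like MSTRG.160993, they reached the overall mean only with the treated groups counted, so their rises are in part built in.

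MSTRG.130479 (chr14:128510862-128522102), near the lncRNA LOC106506134, was nearly lost in SCNT4c-TDG. It had 457, 533 and 600 in SCNT4c against 0, 1.53 and 0 after induction, a ratio of 1007 in reads scaled to depth (1913 against 2 reads) with a 95% counting interval of 278 to 8318 (adjusted p = 1.9e-06). SCNT4c-KG lay between, at 134, 78.7 and 34.2, and the fall from SCNT4c-KG to SCNT4c-TDG also passed the test (adjusted p = 0.00027). MSTRG.149104, with the values given above, fell by 5.87 ± 0.78 on the log2 scale in SCNT4c-TDG (adjusted p = 5.2e-05) and fell by 4.64 ± 0.78 in SCNT4c-KG (adjusted p = 0.00034), and DESeq2 gave no adjusted p for it either. MSTRG.21477 (chr2:55022136-55028061) had 354, 330 and 231 in SCNT4c, 1.67, 6.14 and 1.53 in SCNT4c-TDG, and 9.80, 11.4 and 5.70 in SCNT4c-KG. MSTRG.70209, 98888 bases from SUPT3H, which encodes a subunit of a histone acetyltransferase complex, had 509, 260 and 360 against 15.1, 6.14 and 9.18 (adjusted p = 0.00011). MSTRG.42989, near ARFGEF1, an exchange factor gene for ARF GTPases, had 194, 52.4 and 63.1 against 0.836, 1.53 and 0 (adjusted p = 0.0165) and lost its call in 3 of the alternative fits.

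**Figure D3:**
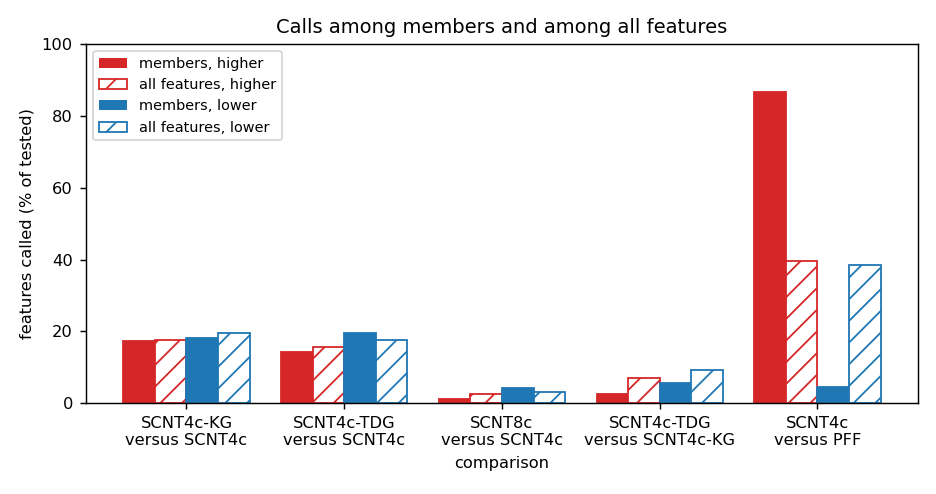
Share of tested features (%, vertical axis from 0) that were called higher (red) or lower (blue) in each comparison, for the members (filled) and for all tested features (hatched). The shares of members and of all features lie close together in SCNT4c-KG versus SCNT4c (17.3% and 17.6% higher) and far apart in SCNT4c versus PFF (86.6% and 39.7% higher).

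Fewer members than features overall passed the test between the treated groups, as a share of those tested. Of the 1055 tested members 86 differed between SCNT4c-TDG and SCNT4c-KG (8.15%, against 16.2% of all features), 27 being higher in SCNT4c-TDG (2.56%, against 7.07%) and 59 lower (5.59%, against 9.13%). The members also had a larger standard error, with a median of 0.99 against 0.78 on the log2 scale for all features. The median log2 difference was -0.27 for the members and -0.02 for all features. With libraries scaled to the same total the split was 40 higher and 43 lower. A fit of these 2 groups alone called 193 of 943 members, DESeq2 on the recovered reads called 130 and edgeR 57. For these and the following refits the share of all features is not given, so the lower share of members is shown for the main fit only. The count was 34 to 50 when SCNT4c-KG replicate 1 or 2, or any SCNT4c-TDG replicate, was left out, with 34 without SCNT4c-TDG replicate 2, and rose to 149 (46 higher and 103 lower) without SCNT8c replicate 3, which is in neither group but enters the shared estimate of the spread.

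MSTRG.144860 (chr17:4410676-4412500, printed above) matched 267 bases of exons of LOC100511846, annotated as KH homology domain-containing protein 1, at 96.3% identity. It had 1691, 1212 and 693 in SCNT4c-KG and 54.4, 32.2 and 62.0 in SCNT4c-TDG, with SCNT4c between them at 155, 319 and 325. The log2 difference of SCNT4c-TDG from SCNT4c-KG was -4.53 ± 1.13 (adjusted p = 0.0128), and 2 alternative fits lost the call. MSTRG.54591 (chr6:750387-752369), 26795 bases from CBFA2T3, a gene of a transcriptional corepressor, had 506, 453 and 429 in SCNT4c-KG and 35.1, 12.3 and 18.4 in SCNT4c-TDG (log2 difference -4.46 ± 0.62, adjusted p = 0.00029). MSTRG.58464 had 123, 135 and 144 against 7.53, 1.53 and 10.7 (adjusted p = 0.00046). In the opposite direction, MSTRG.83022 (chr8:94427198-94708701) had 148, 163 and 158 in SCNT4c-TDG against 9.80, 0 and 0 in SCNT4c-KG (log2 difference 6.15 ± 1.04, adjusted p = 0.00115). MSTRG.35539 (chr3:99249332-99511281) had 304, 1767 and 1105 against 55.5, 45.7 and 21.4 (4.43 ± 0.66, adjusted p = 0.00049). For both of these the SCNT4c values, 70.2, 115 and 61.4 and then 852, 968 and 1211, were well above SCNT4c-KG. MSTRG.160960 had 268, 86.3 and 62.7 in SCNT4c-KG against 1.67, 6.14 and 15.3. The other named members were called at adjusted p between 0.0223 and 0.0402: MSTRG.160305 lower in SCNT4c-TDG, and MSTRG.143008, MSTRG.115760 and MSTRG.154635 higher. These calls were lost in 7, 8, 8 and 4 alternative fits, in that order.

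Between the 4-cell and the 8-cell stage few members passed the test. In SCNT8c, 58 of the 1055 tested differed from SCNT4c (5.50%, against 5.79% of all features), of which 12 rose (1.14%, against 2.62%) and 46 fell (4.36%, against 3.16%). The median log2 difference was -1.02 for the members and -0.31 for all features. The count rested on single libraries: without SCNT8c replicate 3 it was 397 (72 rises and 325 falls), and without any other single library of the comparison it was 8 to 16, that is 10, 8 and 16 without SCNT4c a, b and c and 11 and 8 without SCNT8c replicate 1 and 2. A limma fit of these 2 groups alone called none, with 231 members at an unadjusted p under 0.05, whereas edgeR on the recovered reads called 31 and DESeq2 called 131. The share of all features called in these refits is not given, so nothing particular to the members is read from them.

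MSTRG.15852 (chr1:253747828-253762551), 5214 bases from the zinc finger gene ZFP37, was the only named member of this comparison that kept its call in every fit without 1 replicate. It had 771, 204 and 247 in SCNT4c and 24.3, 24.9 and 22.2 in SCNT8c, a 17.1-fold lower mean (log2 difference -3.78 ± 0.50, adjusted p = 0.0106). The values of both treated groups overlapped those of SCNT4c, with 217, 416 and 258 in SCNT4c-KG and 493, 671 and 619 in SCNT4c-TDG. MSTRG.52098, near APOLD1, had 349, 273 and 148 against 18.7, 15 and 38.0 (adjusted p = 0.0303), and it fell in SCNT4c-KG and SCNT4c-TDG too. MSTRG.121695 had 191, 152 and 105 against 17.7, 0 and 2.11 (adjusted p = 0.0189). MSTRG.104498, near DNAH17, which encodes an axonemal dynein chain, and MSTRG.93015 were at 0 to 9.34 in SCNT8c replicates 1 and 2 but at 54.9 and 80.3 in replicate 3.

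The 5 named rises at the 8-cell stage all rose in SCNT4c-KG and in SCNT4c-TDG as well, comparisons that share the same SCNT4c libraries. Each of these SCNT8c calls was lost in 5 to 9 alternative fits. MSTRG.135924 (chr15:77886070-77891645), 4290 bases from SLC25A12, which encodes a mitochondrial aspartate and glutamate carrier, had 17.4, 41.9 and 68.1 in SCNT4c and 209, 318 and 127 in SCNT8c. Its log2 difference was 2.43 ± 0.55 (adjusted p = 0.0274), and it had 356, 179 and 378 in SCNT4c-KG and 194, 284 and 231 in SCNT4c-TDG. MSTRG.33101 had 319, 124 and 110 in SCNT8c against 18.9, 38.4 and 38.2, and MSTRG.12836 had 218, 195 and 135 against 28.4, 45.4 and 43.2. In these 3 members 81.7%, 84.6% and 99.1% of the locus was masked repeat. MSTRG.115771 had 111, 193 and 70.8 in SCNT8c against uneven SCNT4c values of 0, 42.8 and 14.9. MSTRG.26243 had 168, 145 and 127 against 13.4, 7.86 and 70.6. Their loci were 41.2% and 36.1% masked.

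Between SCNT4c and the donor cells, 798 members were tested, the rest having a mean under 10 in these 6 libraries. Of these, 727 differed (91.1%, against 78.2% of all features tested), 691 being higher in SCNT4c (86.6%, against 39.7%) and 36 lower (4.51%, against 38.5%). The median log2 difference was 5.78 for the members, or 5.63 with the 558 members at 0 in 1 group placed at their bound, and 0.07 for all features. Because an embryo-only transcript can pass the mean of 10 through its embryo libraries alone, these counts describe the members and support nothing about them. MSTRG.37883, MSTRG.149104 and MSTRG.125207, with the values given above and no read in PFF, were at least 29006-fold, 22457-fold and 22203-fold higher in SCNT4c. MSTRG.4157 (chr1:63086063-63105811) was at 7806, 9347 and 10527 in SCNT4c and MSTRG.55990 (chr6:22125219-22337289) at 8061, 7052 and 10593, at least 7507-fold and 6972-fold higher than in PFF. Both were lower in SCNT4c-KG, at 452, 885 and 665 and at 732, 706 and 799.

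Members of the donor cells were few, and since these passed the filter of that fit through PFF alone, their values are given with no test. The neighbours MSTRG.104407 (chr12:2092138-2150766) and MSTRG.104406 (chr12:2154003-2212067) lie between SLC26A11, an anion transporter gene, and NPTX1, the gene of a secreted neuronal pentraxin. MSTRG.104407 had 12529, 15091 and 20115 in PFF and 26.0, 20.1 and 0 in SCNT4c, a 1035-fold lower mean (log2 difference -10.88 ± 1.26). MSTRG.104406 had 2182, 2683 and 3783 against 15, 14.9 and 4.98. Both were at most 66.0 in every library of the other embryo groups. MSTRG.66032 (chr6:158536677-158538077, printed above), 21620 bases from NDC1, a nuclear pore gene, had 220, 256 and 190 in PFF and no read in SCNT4c, at least 267-fold lower, and only 1 embryo library had a value above 0, at 1.67. Its locus was 71.6% GC, the highest of all members. MSTRG.104301 (chr12:810219-812475), 2739 bases from SLC16A3, a lactate transporter gene, had 209, 201 and 154 in PFF and 0 in all 12 embryo libraries, at least 226-fold lower in SCNT4c. MSTRG.8375 had 541, 382 and 493 in PFF and at most 1.67 in any embryo library. It matched exons of LOC110256218 over 1962 bases at 99.7% identity and had 37 other alignments in the genome, so its place is uncertain.

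The members differed in how much of their locus was masked repeat, and their values are described here by that share. The classes were looked at because of the data and carry no test. The choice of members favours rises in the most masked class: of its 105 tested members, 77 (73.3%) reached the mean of 10 only with the treated groups counted, against 38 of 148 (25.7%) in the least masked class, so the rises below are in part built in and support nothing. Conversely, 8 and 34 members of these classes reached it only with SCNT4c counted. The masked share had a median of 39.97% over the loci of members, against 31.5% over loci of known genes, 34.1% over loci of assembled transcripts with a gene and 36.1% over the genome. Among the 105 tested members with over 75% masked, 36 rose and 5 fell in SCNT4c-KG and 44 rose and 1 fell in SCNT4c-TDG, where over all features 17.6% rose and 19.6% fell, and 15.7% and 17.6%. The class held only 1 other tested feature, so it has no reference of its own. Among the 148 with under 25% masked, 19 rose (12.8%) and 34 fell (23.0%) in SCNT4c-KG, against 886 and 611 of all 3823 tested features of that class. In SCNT4c-TDG, 11 of the 148 rose (7.43%) and 43 fell (29.1%), against 587 and 691 of those 3823. From the least to the most masked class, the median log2 difference was -1.04, -0.72, 0.93 and 1.99 in SCNT4c-KG and -1.62, -1.05, 0.62 and 2.41 in SCNT4c-TDG. In SCNT8c it was -1.01, -1.25, -0.55 and 0.15.

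**Figure D4:**
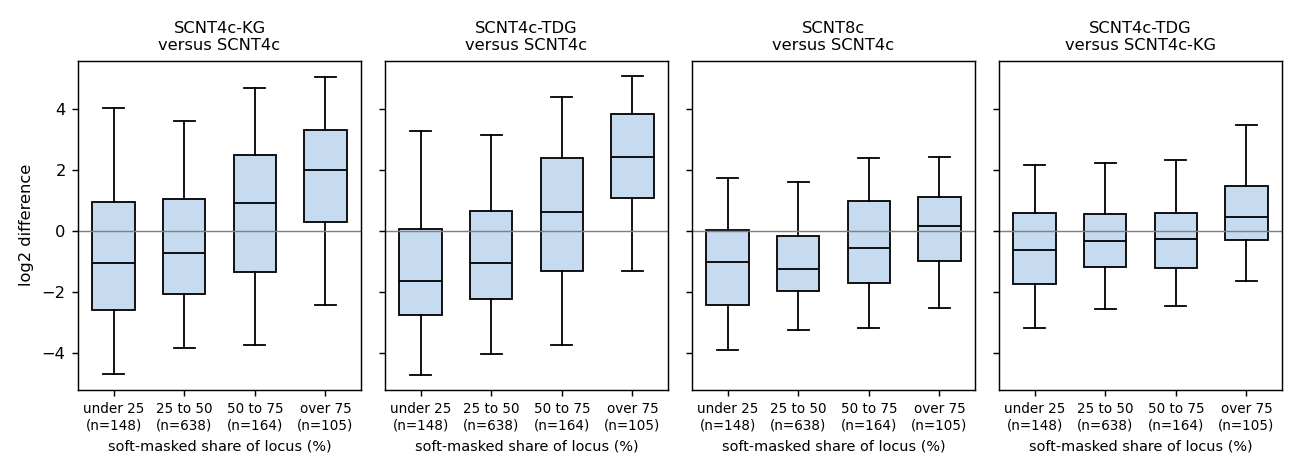
Log2 difference of the members (vertical axis) by the soft-masked share of their locus (horizontal axis, %) in 4 comparisons. Boxes show the quartiles and the median, whiskers the 5th and 95th percentiles. The median climbs from -1.04 to 1.99 in SCNT4c-KG and from -1.62 to 2.41 in SCNT4c-TDG, and by less in the other comparisons, but most members of the last class reached the mean of 10 only with the treated groups counted.

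The 107 members with over 75% masked summed to 2287, 1497 and 2258 in SCNT4c, 6562, 4681 and 5821 in SCNT4c-KG, 8259, 4652 and 5446 in SCNT4c-TDG, and 3531, 2561 and 2029.6 in SCNT8c, with PFF at 235.6 to 300.3. All libraries of the treated groups lay above all SCNT4c libraries, which the choice of members favours. The 157 members with under 25% masked summed to 107628, 91307 and 98231 in SCNT4c, but to 34836.8 to 40099.5 in SCNT4c-KG and 30659 to 31069.8 in SCNT4c-TDG, all of them lower. In SCNT8c these sums were 31868, 26005 and, in replicate 3, 70671. Much of this rested on MSTRG.149104 and MSTRG.125207, which held 27.9% and 27.5% of the SCNT4c sum. Without both, the sums were 34402 to 55136 in SCNT4c, 27812 to 33559 in SCNT4c-KG, 20671 to 25430 in SCNT4c-TDG and 21009 to 26122 in SCNT8c, a much smaller gap. With MSTRG.86503 also left out the separation was gone for SCNT4c-KG, at 22007 to 27636 against 25827 to 43238 in SCNT4c, while SCNT4c-TDG was at 15370 to 21695. The masked classes also differed in other properties: loci with over 75% masked had a median span of 3086 bases and a GC content of 39.4%, those under 25% had 4216 bases and 50.9%, and the class of 25 to 50% had 86439 bases. At loci of at most 10 kb with a GC content of 35 to 45%, the medians from the least to the most masked class were -1.21, -0.74, 1.03 and 2.09 in SCNT4c-KG (19, 43, 34 and 89 members) and -1.94, -0.72, 1.07 and 2.69 in SCNT4c-TDG. Known genes with 50 to 75% of the locus masked had medians of -0.14 in SCNT4c-KG and 0.26 in SCNT4c-TDG over 515 genes, against 0.93 and 0.62 among the members of that class, but their loci were longer. At loci of at most 10 kb, the 14 known genes of that class had medians of 1.61 and 0.61, against 0.95 and 0.42 for 47 members. In the least masked class at such loci, 1361 known genes had medians of 0.60 and -0.01, against -1.20 and -1.94 for 109 members.

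Several members were copies of each other. Among 517 compact loci of at most 30 kb, 195 were linked to another by alignments that summed to at least 2000 bases, each of at least 300 bases at 80% identity or more, and the links formed 7 sets. Overlapping alignments counted each time, so for 48 of the 196 members the longest single alignment was shorter, down to 435 bases. The largest held 164 members with a median of 86.8% masked, of which 161 were tested. In SCNT4c-KG 54 rose and 13 fell, and in SCNT4c-TDG 54 rose and 8 fell, where over all features the shares were 17.6% and 19.6%, and 15.7% and 17.6%. Its summed signal was 16972 ± 1814 (SD, n = 3) in SCNT4c, 20543 ± 2550 in SCNT4c-KG, 20059 ± 3225 in SCNT4c-TDG and 12695 ± 3032 in SCNT8c. One member, MSTRG.4157, held 54.4% of the SCNT4c sum and fell in both treated groups. Without it the sums were 7745 ± 1105 in SCNT4c, 19875 ± 2744 in SCNT4c-KG, 18574 ± 3798 in SCNT4c-TDG and 8763 ± 2245 in SCNT8c, and every treated library lay above every SCNT4c library. Most members of this set are in the most masked class, where the choice of members favours rises. Another held 16 members on 10 chromosomes including X and Y, with 24.9 to 53.6% masked. Several of them matched exons of LOC110255749, an uncharacterised lncRNA. Copies within a set share sequence and are not independent, and unique mapping leaves their single values uncertain.

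The set of 16 included 3 of the 10 most abundant members. MSTRG.116167 had 4267, 5880 and 6824 in SCNT4c, 11846, 13990 and 18756 in SCNT4c-KG, 11549, 11631 and 13308 in SCNT4c-TDG, and 16296, 10136 and 4922 in SCNT8c. MSTRG.81382 had 2873, 2746 and 4404 in SCNT4c, 7334, 9617 and 11709 in SCNT4c-KG, 10440, 14492 and 13017 in SCNT4c-TDG, and 13650, 9053 and 3264 in SCNT8c. In both, all treated libraries exceeded all SCNT4c libraries, and SCNT8c replicate 3 was again the 8-cell library nearest to SCNT4c. The third, MSTRG.100290, did not pass the test in SCNT4c-KG (log2 difference 1.06 ± 0.42, adjusted p = 0.0567 from limma) but rose in SCNT4c-TDG (1.59 ± 0.42, adjusted p = 0.00893). Of the 16, 10 rose and 1 fell in SCNT4c-KG, 11 rose and 2 fell in SCNT4c-TDG, and none passed the test in SCNT8c. Over all features, 17.6% rose and 19.6% fell in SCNT4c-KG, 15.7% and 17.6% in SCNT4c-TDG, and 5.79% were called in SCNT8c. Their sum was 22580 ± 4816 (SD, n = 3) in SCNT4c, 47217 ± 10851 in SCNT4c-KG, 53225 ± 4979 in SCNT4c-TDG and 40828 ± 21529 in SCNT8c, against 2.84 ± 3.93 in PFF. The members of the set did not all move alike. MSTRG.155371 fell from 5462, 4229 and 3656 in SCNT4c to 457, 371 and 537 in SCNT4c-TDG, with SCNT4c-KG at 2295, 2225 and 2382, and MSTRG.21477 fell in both treated groups as given above. MSTRG.155371 was named after its values were seen, as were the sets themselves.

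**Figure D5:**
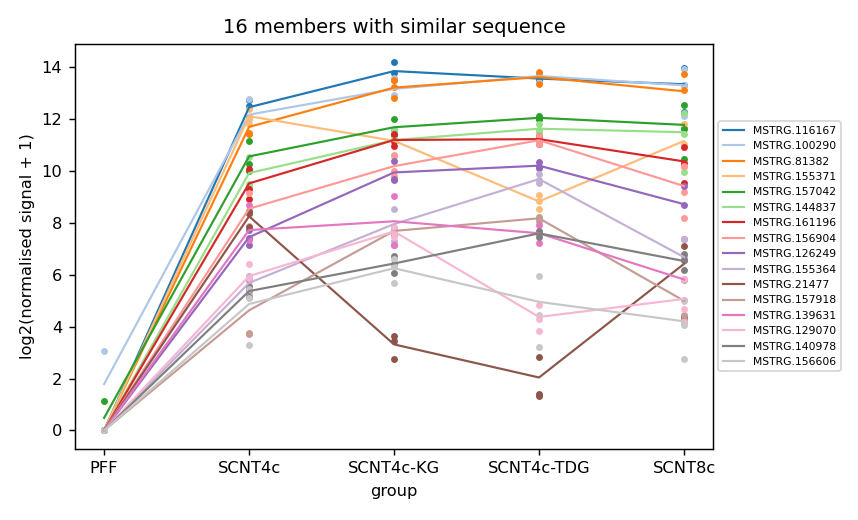
Normalised signal on the log2(value + 1) scale (vertical axis) of the 16 members with similar sequence in the 5 groups (horizontal axis). Points are libraries, and lines join the group means, which were taken before the log2 scale. Most lines rise from SCNT4c to SCNT4c-KG and SCNT4c-TDG, whereas MSTRG.21477 and MSTRG.155371 fall.

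Neighbouring members were found together in 116 runs of at least 2, with gaps of at most 50 kb, which held 259 members. The longest run was a single locus on the X chromosome (chrX:76827110-77593348) with 5 assembled members. MSTRG.157407 was the highest of them, at 940, 215 and 682 in SCNT4c, 2174, 3558 and 3968 in SCNT4c-KG and 8063, 4249 and 7086 in SCNT4c-TDG, and it rose in both treated groups (adjusted p = 0.00283 and 0.00027). MSTRG.157410 had no read in SCNT4c and 31.8, 23.0 and 64.3 in SCNT4c-TDG. MSTRG.157405 passed the test in SCNT4c-KG alone, and MSTRG.157412 passed it in neither. MSTRG.157415 had 0, 0.874 and 0 in SCNT4c, 9.80, 2.54 and 107 in SCNT4c-KG and 17.6, 0 and 30.6 in SCNT4c-TDG. Runs of 4 members numbered 5, on chromosomes 6, 12, X, 3 and 1, and those on chromosomes 6 and 12 are described because ties were ordered by start coordinate. The run on chromosome 12 (chr12:61583777-61602398) held 4 members, each matching exons of LOC110259959 at 88.3 to 91.3% identity. Its highest member, MSTRG.109413, had 517, 610 and 571 in SCNT4c, 160, 47.0 and 142 in SCNT4c-KG and 26.8, 26.8 and 43.6 in SCNT4c-TDG, and fell in both (adjusted p = 0.0188 and 0.00072). MSTRG.109405 and MSTRG.109408 were highest in SCNT4c, at 65.5, 68.2 and 44.0 and at 38.6, 50.7 and 21.6, and MSTRG.109407 at the same locus as MSTRG.109408 did not pass the test in either group. The run on chromosome 6 (chr6:20696789-22337289) held MSTRG.55953, MSTRG.55956, MSTRG.55980 and MSTRG.55990. Of these, MSTRG.55990 fell in both treated groups, whereas MSTRG.55953 had 2369, 3740 and 2381 in SCNT4c against 2271, 1836 and 1352 in SCNT4c-KG and did not pass the test.

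On the X chromosome, 25 of the 69 tested members rose and 8 fell in SCNT4c-KG, where 20.7% of the other 651 tested features of that chromosome rose and 20.4% fell. In SCNT4c-TDG 22 rose and 8 fell, against 17.4% and 19.4% of the others. Of the 11 members on the Y chromosome, 4 rose and 5 fell in SCNT4c-KG and 3 rose and 5 fell in SCNT4c-TDG. Of the other 42 tested features there, 8 rose and 9 fell in SCNT4c-KG, and 9 rose and 10 fell in SCNT4c-TDG. Off the X and Y chromosomes, 153 of 975 members rose (15.7%) and 179 fell (18.4%) in SCNT4c-KG, against 17.5% and 19.7% of the other 17194 features. In SCNT4c-TDG 125 rose (12.8%) and 195 fell, against 15.7% and 17.4%. Of the 186 members that were called in SCNT4c-KG and had a tested neighbour gene, the neighbour was called for 73 (39.2%), against 35.9% for members not called and 37.2% of all features, with 41 in the same and 32 in the opposite direction. Within 5 kb, the neighbour was called for 28 of 55, with 19 in the same direction, and for 36 of the 102 members not called. In SCNT4c-TDG the counts within 5 kb were 22 of 50 (44.0%) and 47 of 107 (43.9%). At all distances the neighbour of 69 of 188 was called in SCNT4c-TDG (36.7%, against 35.5% for members not called), 37 in the same direction and 32 in the opposite one, and in SCNT8c that of 1 of 29, against 31 of the 514 members not called. These counts of neighbours are a description, and no difference between classes of position or chromosome was tested.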

How the data were processed

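RNA of 3 PFF libraries and of 12 libraries of pooled cloned embryos was amplified as cDNA and sequenced as paired-end reads. Per the study's methods and the submitters' processing notes, the authors trimmed reads with Trimmomatic 0.39, mapped them with STAR 2.5.3a (unique mappers only), built transcripts in StringTie 2.1.2, and counted and normalised them in HTSeq and DESeq2. The deposited values are normalised signal, that is, read counts divided by 1 factor per library. The values of each library were whole multiples of what 1 read is worth (100% within a tolerance of 0.02), so the reads behind them were recovered. Which libraries were assembled is not given in the sources used here. The build is Sscrofa11.1, and its RefSeq annotation (release 106) was used for coordinates, neighbours, sequence and the soft mask.

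The members and the lists were chosen with earlier results of these data known. Entries were reduced to 1 per identifier. Differences were fitted with limma 3.58.1 in R 4.3.3 on log2(value + 1) with a mean-variance trend, over all features with a mean of at least 10 in the libraries of the fit (12 embryo libraries, or the 6 of SCNT4c and PFF), with Benjamini-Hochberg adjustment over all features. Features were called at an adjusted p under 0.05 together with a more than 2-fold change. Fold changes are on the log2(value + 1) scale, which understates the change of low transcripts, and errors are standard errors. With 3 libraries against 3, an exact permutation test could not go below p = 0.1, so none was used. The fit was also run on simulated data, whose outcome is not given here and is not used as support. Named members were, in each comparison, the 5 largest rises and the 5 largest falls among called members whose libraries did not overlap between the groups and whose higher group had a mean of at least 100, together with the 10 highest means, the 5 smallest SDs on the log2 scale among members with a mean of at least 100, the transcripts on both sides of the mean of 10, and the 3 longest runs, with ties ordered by start coordinate. Folds against a group without reads use a floor of 3 reads over the group. Alternatives were other pseudocounts, filters and scaling, edgeR 4.0.16 and DESeq2 1.42.0 on the recovered reads, fits of 2 groups, a replicate block and fits without 1 replicate. Loci were aligned with blastn 2.17.0, and the masked share, the sets of similar loci and the printed stretches were chosen after the values were seen. Levels of different members were not divided by length, since exons are not given, so no order between members is a molar one.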

Additional observations from a re-analysis of the deposited data

How the results depend on the processing

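Under the alternatives tried, 37 named values, leaving out SCNT4c versus PFF and members that passed the filter through 1 group, were refitted with an adjusted p 588 times: 492 fits kept the call, 96 lost it and 0 changed direction. The 37 include the named rises that reached the mean only with the treated groups counted, whose calls are in part built in. DESeq2 gave no adjusted p for MSTRG.115761 and MSTRG.149104 in SCNT4c-TDG versus SCNT4c, which count as neither. Of the losses 63 were in SCNT8c versus SCNT4c and 29 in SCNT4c-TDG versus SCNT4c-KG. The count of members called varied more. In SCNT4c-KG versus SCNT4c (374) it was 244 with a minimum mean of 50 and 208 when only members with a mean of at least 50 were counted. It was 263 to 333 without 1 replicate of the compared groups and 478 without SCNT8c replicate 3. In SCNT4c-TDG versus SCNT4c (358) it was 212 with members of at least 50, 569 in a fit of the 2 groups alone, and 223 to 297 without 1 replicate of the compared groups. It was 466 without SCNT8c replicate 3. In both comparisons the fit without SCNT8c replicate 3 was added after the data were seen. In SCNT8c versus SCNT4c (58) it was 97 with a pseudocount of 10, 23 with all features above 0, 31 with edgeR, 131 with DESeq2, 38 with members of at least 50, 0 in a fit of the 2 groups alone, and 8 to 397 without 1 replicate. In SCNT4c-TDG versus SCNT4c-KG (86) it was 56 with all features above 0, 57 with edgeR, 130 with DESeq2, 56 with members of at least 50, 193 in a fit of the 2 groups alone, and 34 to 149 without 1 replicate, the highest being without SCNT8c replicate 3, which was added after the data were seen. In SCNT4c versus PFF (727) it was 364 with a minimum mean of 50, 394 with members of at least 50, and 674 to 731 without 1 replicate. The counts with members of at least 50 and those with a minimum mean of 50 are taken from fewer members by construction, and for the other settings the cause was not tested. The replicate numbers of SCNT4c-KG and SCNT4c-TDG did not pair the libraries, since deviations of libraries with the same number had correlations of 0.003, 0.008 and 0.033, and a replicate block gave 196 against 193 without it in the same 2 groups. The SCNT4c numbering is in conflict, so no block was fitted there. Depth limited low members: 3 reads over the SCNT4c-KG group correspond to a mean of 1.44, against 0.831 in SCNT4c.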
